A study of Mus musculus with 32 samples.

Results

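The 9 genes Cdh5, Cldn5, Pecam1, Flt1, Ly6c1, Slco1a4, Vtn, Acta2 and Pdgfrb mark brain endothelial cells and the mural cells around them. They were chosen by gene symbol from the transcript tables of an allele-specific RNA-seq study of mouse brain, and all 9 were found among the 13090 genes listed in all 3 tables, of 18501 genes listed in at least 1. Poly A RNA came from F1 hybrids of the inbred strains CastEiJ (CAST) and C57BL/6J (B6), bred in both directions. In the reciprocal cross (F1r) B6 mothers were bred to CAST fathers, and in the initial cross (F1i) CAST mothers to B6 fathers. Adult animals of 5 weeks gave microdissected preoptic area (POA) and medial prefrontal cortex (PFC), each as 4 pools (F1r females, F1r males, F1i females and F1i males) of RNA from 8 to 10 individuals. Embryos of day 15 (E15) gave whole brain, as 1 F1r pool and 1 F1i pool of 4 to 5 individuals whose sex the labels do not state. E15 brains of the pure CAST and pure B6 strains, also pooled from 4 to 5 individuals, serve only to compare the parental strains. The 10 F1 pools were sequenced as 24 libraries, and the technical repeats of a pool were summed, so a value stands for a pool and the spread between pools is the only replicate error. Age and dissection differ together between the adult and the embryonic pools and cannot be told apart.

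Endothelial cells line the vessels of the brain and are joined by adherens and tight junctions that, with a set of membrane transporters, make up the blood-brain barrier. Mural cells, the pericytes of capillaries and the smooth muscle cells of larger vessels, lie on the outside of the endothelium within a shared basement membrane. Vessels grow into the embryonic brain from its surface, and the endothelium acquires barrier and transport functions as the brain develops.

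Levels are counts of informative reads, that is, reads over bases that differ between CAST and B6, given per 1000000 such reads of the pool (RPM) and scaled by the trimmed mean of M-values (TMM); they are called scaled RPM below. A gene's level depends on how many such bases it holds, so levels are compared between pools and never between genes. POA pools held 3603514 to 7702810 informative reads, PFC pools 4963402 to 7470295, and E15 pools 11454846 and 11908414. A single mitochondrial gene, Atpase6, took 1.39 to 2.51% of the reads in POA pools, 4.88 to 8.15% in PFC pools and 3.57 to 4.35% in E15 pools. The summed level of the 9 genes was 178 to 187 scaled RPM in POA pools, 143 to 198 in PFC pools and 262 to 348 in E15 pools, so every pool held the markers. Since tissue was sequenced in bulk, fewer cells of a type and less RNA per cell cannot be told apart in any result here.

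Set against E15 whole brain, the endothelial genes moved in opposite directions. The junction genes Cdh5 and Pecam1 were lower in both adult regions, Cdh5 by 6.10-fold in POA and 4.49-fold in PFC, while the surface antigen Ly6c1 was 17.4-fold higher in POA and 13.5-fold higher in PFC, and the transporter Slco1a4 was 5.61-fold and 7.32-fold higher. Of the mural genes, Pdgfrb was lower in both adult regions, Vtn fell in POA, and Acta2 did not pass the test in either. In each region 2 of the 9 genes were called higher and 4 lower at an adjusted p under 0.05 (edgeR quasi-likelihood test, Benjamini-Hochberg adjustment over 12166 genes). Among all genes tested, 30.7% were called higher and 32.6% lower in POA, and 29.1% higher and 31.2% lower in PFC, so the number of calls among the 9 was near the background.

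**Figure D1:**
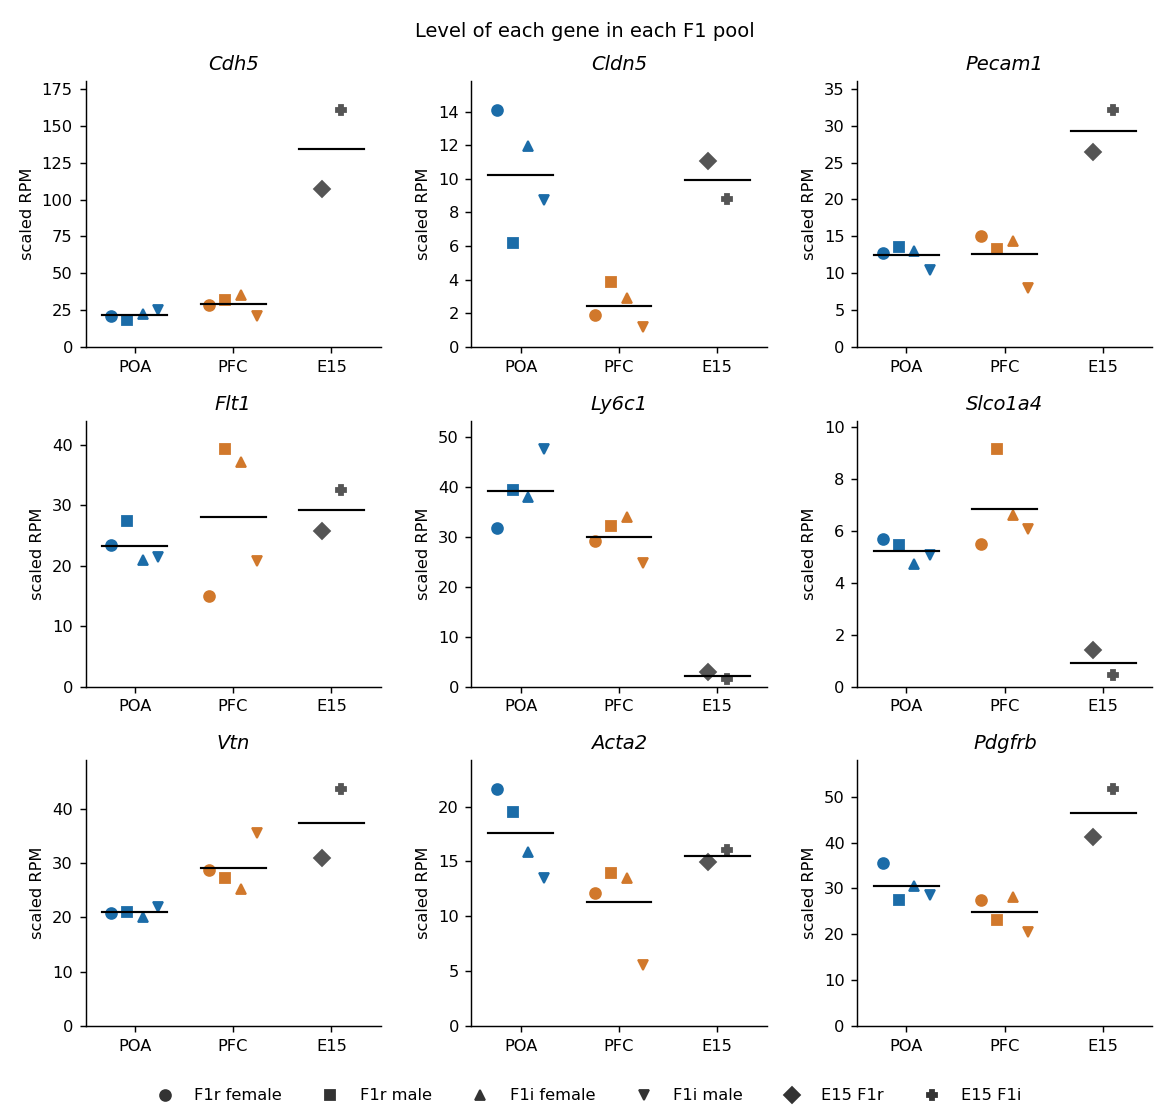
Level of each gene (y axis, scaled RPM, linear from 0) in the POA, PFC and E15 pools; each symbol is a pool and each bar the mean of its region, over 4, 4 and 2 pools. Ly6c1 lies at 24.8 or above in every adult pool and at 2.90 or below in both E15 pools, while Cdh5 lies at 35.6 or below in every adult pool and at 107 or above in E15.

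Cdh5 encodes VE-cadherin, the adhesion molecule of endothelial adherens junctions (chr8:106625525-106668402, plus strand, NCBIM37, the assembly behind mm9). Its level, over the 20 variant bases listed in all 3 tables, was 21.2, 18.5, 22.5 and 24.8 scaled RPM in POA pools (F1r female, F1r male, F1i female and F1i male, the order used throughout), 28.7, 32.2, 35.6 and 20.8 in PFC pools, and 107 and 161 in the E15 F1r and F1i pools. Every adult pool lay far below both embryonic pools, and the POA and PFC pools overlapped. The log2 difference was -2.61 ± 0.20 (SE) for POA over E15 (adjusted p = 7.01e-08) and -2.17 ± 0.20 for PFC over E15 (adjusted p = 3.79e-07) in edgeR. At all 20 bases taken singly, the mean level was lower in POA and lower in PFC than in E15. Its deepest base alone gave -3.66 in POA.

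Pecam1 encodes CD31, an adhesion molecule of endothelial cell contacts that blood platelets and leukocytes also carry (chr11:106515531-106611942, minus strand). It had 12.7, 13.6, 13.1 and 10.4 scaled RPM in POA pools, 15.0, 13.3, 14.4 and 7.95 in PFC pools, and 26.4 and 32.2 in E15 pools. All 8 adult pools were below both embryonic pools. Pecam1 had a log2 difference of -1.23 ± 0.23 (SE) for POA over E15 (adjusted p = 0.000269) and -1.21 ± 0.23 for PFC over E15 (adjusted p = 0.000380) in edgeR. Counted at its deepest variant base alone, Pecam1 lost both calls, with log2 differences of -0.94 and -0.92 (adjusted p = 0.0655 and 0.0682).

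Cldn5 encodes claudin-5, the main claudin of the tight junctions between brain endothelial cells (chr16:18776940-18778353, plus strand). It had 14.1, 6.18, 11.9 and 8.74 scaled RPM in POA pools, 1.90, 3.89, 2.91 and 1.17 in PFC pools, and 11.0 and 8.80 in E15 pools. POA and E15 overlapped, and every PFC pool lay below all of them. The log2 difference was 0.09 ± 0.33 (SE) for POA over E15 (adjusted p = 0.833) and -1.98 ± 0.37 for PFC over E15 (adjusted p = 0.000325) in edgeR. The PFC values rest on 10, 17, 19 and 5 informative reads, against 109, 25, 86 and 31 in POA. Both variant bases lie in the coding part and within a read length of 36 bases of each other, so a read may count at both. They are shown because the whole Cldn5 measurement rests on them; each is given with 12 bases to either side in the B6 and the CAST form, read 5′ to 3′ on the plus strand of NCBIM37 at chr16:18777091-18777115 (G164A) and chr16:18777121-18777145 (G194A), with the variant base in capitals and numbered from the start of the transcript.
Cldn5 164, B6: ggggtctgcagcGttggaaattctg
Cldn5 164, CAST: ggggtctgcagcAttggaaattctg
Cldn5 194, B6: ggtgctgtgtctGgtaggatgggtg
Cldn5 194, CAST: ggtgctgtgtctAgtaggatgggtg

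Flt1 encodes VEGF receptor 1, which binds vascular endothelial growth factor and is also made as a shorter soluble form (chr5:148373180-148537587, minus strand). Its level was 23.4, 27.4, 21.0 and 21.4 scaled RPM in POA pools, 15.0, 39.3, 37.3 and 20.8 in PFC pools, and 25.8 and 32.5 in E15 pools. The PFC pools spanned the full range of the other groups. Flt1 was called in neither comparison with E15, at log2 differences of -0.32 ± 0.30 (SE) for POA and -0.05 ± 0.30 for PFC (edgeR adjusted p = 0.363 and 0.894). Of its 14 shared variant bases, 5 lie only in the full-length transcript and 9 in the part common to both transcripts; the split was made after the values were seen and was not tested. The full-length part held 29.8, 27.9, 27.2 and 26.3% of the Flt1 reads in POA pools, 29.1, 28.5, 25.1 and 28.1% in PFC pools, and 23.5 and 15.3% in E15 pools. Both embryonic values were below the lowest adult value.

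Ly6c1 encodes a lipid-anchored surface protein of the Ly6 family, present on brain endothelium and, with its close relative Ly6c2, on blood monocytes (chr15:74875447-74879260, minus strand). It had 31.9, 39.5, 38.1 and 47.6 scaled RPM in POA pools, 29.3, 32.2, 34.0 and 24.8 in PFC pools, and 2.90 and 1.51 in E15 pools. The adult and embryonic pools did not overlap. For Ly6c1 the log2 difference was 4.12 ± 0.30 (SE) for POA over E15 (adjusted p = 3.53e-08) and 3.75 ± 0.29 for PFC over E15 (adjusted p = 6.95e-08) in edgeR. The E15 values rest on 35 and 17 informative reads, and the level was above E15 in POA and in PFC at each of the 4 variant bases. Without the E15 F1r pool the log2 differences were 4.72 and 4.36. Microglia and macrophage markers moved the same way: all 8 markers tested of the 13 in that list were higher in both adult regions. Over all genes, 30.7% were called higher in POA and 29.1% in PFC. The summed level of the 8 markers was 297 to 339 scaled RPM in POA, 477 to 560 in PFC and 123 to 157 in E15. P2ry12, Aif1, Cd68, Mrc1 and Lyz2 were not among the genes listed in all 3 tables, and the part of these cells in the Ly6c1 difference was not tested.

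The bases behind Ly6c1 are shown because its reads have a near-identical neighbour. Of the 3 variant bases searched, the B6 form of 2 had an exact match elsewhere in the genome, in both cases in Ly6c2 (C200T and C615T), and the CAST form of none did. No 25-base form searched for the other 8 genes matched elsewhere. Bases whose 25-base form crossed an exon end, and bases not listed in all 3 tables, were not searched. The deposited calls flag every Ly6c1 and Pecam1 base they list, and some of Flt1 and Pdgfrb, as repeat in alignment. The part of this in the counts was not tested. The coding bases at chr15:74878894-74878918 (C95G) and chr15:74877817-74877841 (C200T) of NCBIM37 are given on the minus strand, 5′ to 3′, with the variant base in capitals.
Ly6c1 95, B6: gtcctgtgtgctCattcttcttgtg
Ly6c1 95, CAST: gtcctgtgtgctGattcttcttgtg
Ly6c1 200, B6: agttacctgccgCgcctctgatgga
Ly6c1 200, CAST: agttacctgccgTgcctctgatgga

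Slco1a4 encodes an organic anion transporter (Oatp1a4) of the brain endothelial membrane (chr6:141753961-141804720, minus strand). At the 1 variant base listed in all 3 tables it had 5.70, 5.43, 4.72 and 5.07 scaled RPM in POA pools, 5.51, 9.14, 6.59 and 6.08 in PFC pools, and 1.41 and 0.444 in E15 pools. Every adult pool exceeded both embryonic pools, which held 17 and 5 reads at that base. For Slco1a4 the log2 difference was 2.49 ± 0.38 (SE) for POA over E15 (adjusted p = 4.96e-05) and 2.87 ± 0.38 for PFC over E15 (adjusted p = 1.33e-05) in edgeR. The size depends on the E15 reads and on the bases counted. Without the E15 F1r pool the log2 differences were 3.40 and 3.78, and without the E15 F1i pool 1.97 and 2.35. Over all variant bases listed the log2 differences were 4.24 and 3.70, past the test. That setting summed 13 bases in POA, 8 in PFC and 3 at E15, so its levels cover unequal sets of bases.

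Vtn encodes vitronectin, a matrix glycoprotein that binds integrins and that brain pericytes make (chr11:78312593-78315826, plus strand). It had 20.7, 21.0, 20.001 and 22.0 scaled RPM in POA pools, 28.7, 27.2, 25.1 and 35.5 in PFC pools, and 30.9 and 43.6 in E15 pools. The 4 POA pools lay within a narrow band below all PFC and E15 pools, and PFC overlapped E15. The log2 difference was -0.82 ± 0.18 (SE) for POA over E15 (adjusted p = 0.00123) and -0.35 ± 0.18 for PFC over E15 (adjusted p = 0.114) in edgeR. The PFC difference passed the test on library size without TMM, at -0.68, and without the E15 F1r pool, at -0.56 (adjusted p = 0.00415 and 0.0399).

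Pdgfrb encodes the PDGF receptor beta, the receptor through which endothelial PDGF-B recruits pericytes (chromosome 18, plus strand). Its level was 35.5, 27.4, 30.6 and 28.5 scaled RPM in POA pools, 27.5, 23.1, 28.1 and 20.6 in PFC pools, and 41.2 and 51.7 in E15 pools. Both adult regions were below E15 in every pool. The log2 difference was -0.60 ± 0.18 (SE) for POA over E15 (adjusted p = 0.0109) and -0.90 ± 0.19 for PFC over E15 (adjusted p = 0.000745) in edgeR. Without the E15 F1i pool the POA difference fell short of the test, at -0.38 (adjusted p = 0.156). Its deepest base alone gave -1.46 in POA and -1.54 in PFC, both past the test. Of its 19 bases taken singly, the mean level was below E15 at 11 and above it at 8 in POA. In PFC it was below E15 at 17 and above it at 2.

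Acta2 encodes the actin of vascular smooth muscle (chr19:34315580-34329826, minus strand). It had 21.6, 19.5, 15.8 and 13.5 scaled RPM in POA pools, 12.2, 13.9, 13.5 and 5.61 in PFC pools, and 14.9 and 16.1 in E15 pools. POA overlapped E15, and all 4 PFC pools were below both E15 pools. Neither difference passed the test, at 0.17 ± 0.27 (SE) for POA over E15 and -0.46 ± 0.27 for PFC over E15 (edgeR adjusted p = 0.607 and 0.152). The PFC difference passed it on library size without TMM (-0.79, adjusted p = 0.0184), at the deepest variant base (-0.80, 0.0393) and without the PFC F1i female pool (-0.70, 0.0487). Markers of fibroblasts and meninges, cells of the brain surface and of large vessels, fell in both adult regions at 7 of the 10 tested. Over all genes, 32.6% fell in POA and 31.2% in PFC. The summed level of these markers was 118 to 163 scaled RPM in POA, 161 to 252 in PFC and 381 to 400 in E15. Their part in the mural differences was not tested.

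**Figure D2:**
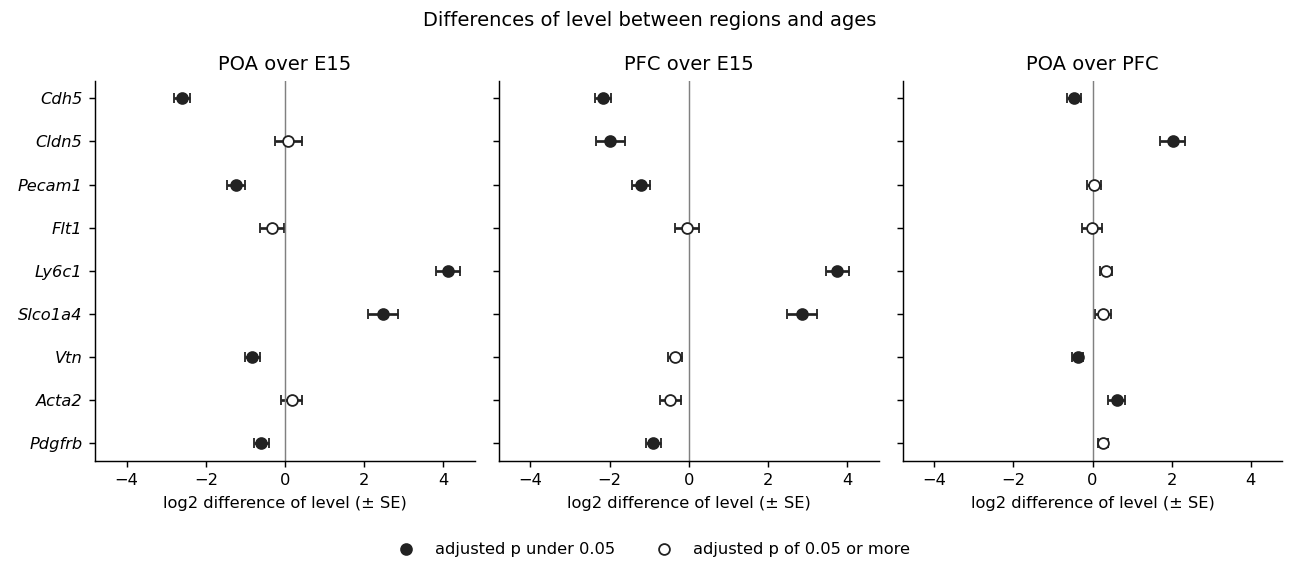
Log2 difference of level (x axis, ± SE from edgeR) for each gene in POA over E15, PFC over E15 and POA over PFC; filled circles have an adjusted p under 0.05 and open circles do not. Ly6c1 and Slco1a4 lie to the right of 0 and Cdh5, Pecam1 and Pdgfrb to the left in both comparisons with E15, and Cldn5 lies at 2.03 in POA over PFC.

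The rest of the vascular genes were described from lists of endothelial, barrier, mural, basement membrane and signalling genes. The median log2 difference of all 12166 genes tested was -0.05 in both comparisons with E15. Of these genes, 30.7% were called higher and 32.6% lower in POA, and 29.1% higher and 31.2% lower in PFC. Of 26 further endothelial genes tested, 17 fell and 4 rose in POA, with a median log2 difference of -0.83, and 16 fell and 3 rose in PFC, with a median of -0.94. Clec14a, an endothelial C-type lectin, fell by 4.38 ± 0.40 (SE, log2) in POA, and the surface receptor Cd93 fell by 2.91 ± 0.33 in PFC. Clec14a had 0.247 to 0.518 scaled RPM in POA pools and 5.39 to 12.6 in E15 pools, so its POA level rests on few reads. Ly6a, a relative of Ly6c1, was 4.16 ± 0.41 higher in PFC on the log2 scale, with 6.78 to 9.35 scaled RPM in PFC pools and 0.267 to 0.664 in E15 pools. The endothelial list therefore held members that moved with Cdh5 and a member that moved with Ly6c1.

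Of 23 barrier genes tested, 7 rose and 10 fell in POA (median log2 difference 0.17) and 6 rose and 10 fell in PFC (median 0.18). The share that rose was near the 30.7% of all genes in POA and 29.1% in PFC, beside 32.6% and 31.2% that fell. Apcdd1, a Wnt inhibitor that brain endothelium makes, had 50.7 to 54.3 scaled RPM in POA pools, 55.6 to 72.7 in PFC pools and 256 to 332 in E15 pools. Spock2 of that list rose, with 2647 to 2955 in POA pools, 1833 to 2101 in PFC pools and 790 to 845 in E15 pools. Among 11 further mural genes, 3 rose and 4 fell in POA and 3 rose and 3 fell in PFC, again near those shares. The proteoglycan gene Cspg4, which encodes NG2 of pericytes and of oligodendrocyte precursors, was 1.24 ± 0.25 (SE, log2) higher in POA. Oligodendrocyte genes moved with it: all 4 tested rose in both adult regions, and their summed level was 6793 to 7258 scaled RPM in POA, 1334 to 4279 in PFC and 98.2 to 154 in E15. Their part in the Cspg4 difference was not tested.

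Of 12 basement membrane genes tested, 8 fell and 2 rose in POA (median log2 difference -1.48) and 10 fell and 1 rose in PFC (median -1.58). Over all genes, 32.6% fell and 30.7% rose in POA, and 31.2% fell and 29.1% rose in PFC. Nid1, which encodes the linker protein nidogen-1, had 2.46 to 5.07 scaled RPM in POA pools, 2.15 to 4.34 in PFC pools and 58.2 to 61.3 in E15 pools, a log2 difference of -4.27 ± 0.27 (SE) for POA and -4.21 ± 0.27 for PFC over E15. Sparc of the same list was 2.59 ± 0.16 (SE, log2) higher in POA. Its level was 2375 to 2759 scaled RPM in POA pools, 269 to 363 in PFC pools and 424 to 443 in E15 pools. Of 19 genes of vascular growth and guidance signals, 10 fell and 3 rose in POA and 9 fell and 4 rose in PFC, among them the VEGF co-receptor Nrp1, at 8.81 to 12.8 in POA pools, 8.65 to 11.4 in PFC pools and 30.2 to 43.5 in E15 pools. Both blood genes tested fell in both regions, and the globin gene Hbb-b1 had 131 to 156 scaled RPM in POA pools, 88.6 to 162 in PFC pools and 1285 to 1752 in E15 pools. No choroid plexus marker of the 9 in that list was among the genes listed in all 3 tables.

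Between the adult regions, Cldn5 had the largest difference among the 9 genes. POA held 4.07-fold more Cldn5 than PFC, at a log2 difference of 2.03 ± 0.32 (SE; edgeR adjusted p = 0.000171), and the 4 POA pools did not overlap the 4 PFC pools. Acta2 was 1.52-fold higher in POA (log2 difference 0.61 ± 0.21, adjusted p = 0.0252), Cdh5 was 1.39-fold lower (-0.47 ± 0.17, adjusted p = 0.0334) and Vtn 1.29-fold lower (-0.37 ± 0.14, adjusted p = 0.0398). In all, 2 of the 9 genes were called higher and 2 lower in POA; of 11942 genes tested, 26.9% were called higher and 28.5% lower, so the number of calls was near the background. Over the variant bases listed in both adult tables, Acta2 averaged 16.6 ± 3.43 scaled RPM in POA and 10.8 ± 3.71 in PFC (SD, n = 4 pools each), Cdh5 averaged 21.2 ± 2.31 in POA and 29.3 ± 6.41 in PFC, and Vtn averaged 23.8 ± 0.967 in POA and 31.003 ± 4.91 in PFC.

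The Cldn5 difference passed the test in all 14 alternatives tried, at log2 differences of 1.76 to 2.47. The other 3 calls were passed in 6 (Cdh5), 6 (Vtn) and 7 (Acta2) of 14 alternatives. Cdh5 did not pass without the POA F1r female, POA F1r male, POA F1i female, PFC F1r male or PFC F1i female pool (log2 differences of -0.43, -0.41, -0.47, -0.35 and -0.36), on all variant bases listed (-0.25) or at its deepest base (-0.20). All variant bases listed for Cdh5 numbered 28 in POA and 23 in PFC, so that setting compares unequal sets of bases. Vtn did not pass without any single POA pool (-0.41, -0.37, -0.37 and -0.30), without the PFC F1r female or F1i male pool (-0.34 and -0.26) or in DESeq2 (-0.37, adjusted p = 0.0737). Acta2 did not pass without any single POA pool (0.65, 0.58, 0.63 and 0.61), without the PFC F1r female or F1i male pool (0.47 and 0.45) or at its deepest base (0.13). Without TMM the median of all genes moved to 0.25 on the log2 scale and the share of called genes that were higher in POA to 68.5%, against 48.6% with it; relative to that median, Cdh5 stayed at -0.47, Vtn at -0.37, Acta2 at 0.61 and Cldn5 at 2.02. On that scale the Cdh5 and Vtn differences were -0.23 and -0.12 and did not pass. The same change moved the share of called genes that were higher in PFC over E15 to 31.8%, against 48.2%, with a median of -0.38.

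The other 5 genes did not pass the test between the adult regions. Ly6c1 had a log2 difference of 0.34 ± 0.16 (SE), Pdgfrb of 0.26 ± 0.13, Slco1a4 of 0.26 ± 0.21, Pecam1 of 0.04 ± 0.18 and Flt1 of -0.02 ± 0.25 for POA over PFC (edgeR adjusted p = 0.0795, 0.101, 0.309, 0.851 and 0.960). Ly6c1 passed at its deepest base over both regions, number 125 of the transcript, with a log2 difference of 1.94 (adjusted p = 2.75e-06). At that base its mean level was 14.4 scaled RPM in POA and 4.72 in PFC, against 8.56 and 10.7 at base 95, 8.00 and 7.43 at base 200, and 8.28 and 7.19 at base 615. Thus 3 of its 4 bases were higher in POA, base 125 by the widest margin. On library size without TMM, Ly6c1, Slco1a4 and Pdgfrb passed, at 0.59, 0.51 and 0.51 (adjusted p = 0.00559, 0.0484 and 0.00465). On all variant bases listed, Slco1a4 and Pdgfrb passed, at 0.53 and 0.40 (adjusted p = 0.0320 and 0.0143), as did Slco1a4 without the PFC F1r male pool (0.50, 0.0324) and Pdgfrb at its deepest base (0.99, 0.00599). All variant bases listed numbered 13 in POA and 8 in PFC for Slco1a4, and 27 and 23 for Pdgfrb. That setting therefore compares unequal sets of bases.

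**Figure D3:**
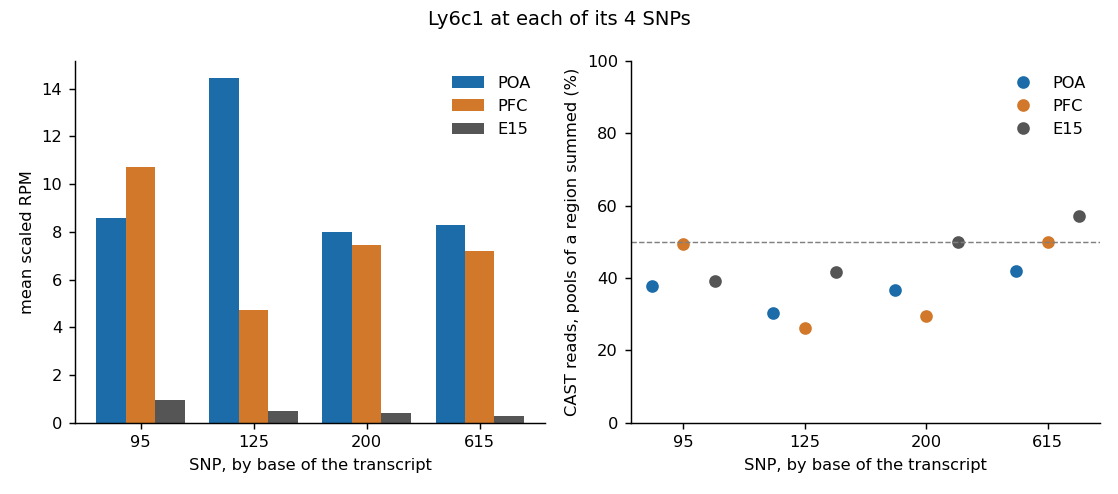
Ly6c1 at its 4 variant bases (x axis, base of the transcript): left, mean level (scaled RPM) in POA, PFC and E15; right, CAST share (%) of the reads of all pools of a region, with a dashed line at 50%. Base 125 has 14.4 in POA and 4.72 in PFC, and its CAST share is 30.3% in POA and 26.3% in PFC.

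Among the further lists, 0 of 23 endothelial genes were called higher and 4 lower in POA than in PFC, with a median log2 difference of 0.00, as over all genes. The 4 included the progenitor and endothelial antigen Cd34, at 3.79 to 4.89 scaled RPM in POA pools and 20.9 to 24.7 in PFC pools, and the fenestral diaphragm gene Plvap, at 10.4 to 12.3 in POA pools and 12.5 to 19.0 in PFC pools. Set against the 26.9% higher and 28.5% lower over all genes, 8 of 22 barrier genes were higher and 7 lower in POA, 3 of 12 mural genes higher and 3 lower, and 4 of 12 basement membrane genes higher and 2 lower. The mural counts were near the background. Sparc, a matrix protein that endothelium and glia secrete, was 3.02 ± 0.11 (SE, log2) higher in POA. Sparcl1, also of the basement membrane list, was 0.71 ± 0.08 lower. Glial markers moved between the regions as well: all 5 oligodendrocyte genes tested were higher in POA (median log2 difference 1.67), 4 of 7 astrocyte genes were higher and 1 lower, and 6 of 8 microglia and macrophage genes were lower. The 7 astrocyte genes summed to 2703 to 3088 scaled RPM in POA and 2381 to 2709 in PFC; the part of glia in the vascular differences between regions was not tested.

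Sex and direction of cross moved none of the 9 genes past the test. Between female and male adult pools, 4 of 11942 genes were called (0.0335%) and 616 had an unadjusted p under 0.05 in edgeR; among the 9 genes the smallest unadjusted p was 0.0370, for Pdgfrb, whose log2 difference was 0.30 ± 0.13 (SE) for female over male. Between F1r and F1i pools, 1 gene was called (0.00837%) and 578 had an unadjusted p under 0.05; the smallest of the 9 was 0.0422, for Acta2, whose log2 difference was 0.47 ± 0.21 for F1r over F1i. No setting tried called any of the 9 in either comparison.

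The spread among PFC pools was shared by most of the genes. The PFC F1i male pool was the lowest PFC pool for 7 of the 9 genes and lay below the regional mean for 8, by a mean of 0.42 on the log2 scale. In the same pool Vtn was at its PFC maximum, 0.31 above its regional mean. The PFC F1r male and F1i female pools lay above the regional mean by 0.28 and 0.19, and all POA pools lay within 0.10 of theirs. Further endothelial genes had median departures of -0.15 in the PFC F1i male pool, 0.13 in the F1r male, 0.15 in the F1i female and -0.14 in the F1r female pool, where the 9 genes had a mean of -0.05. Further mural genes had a median of 0.02 in the PFC F1i male pool. The summed oligodendrocyte markers varied over the same pools in another order, at 4279 scaled RPM in F1r females, 1334 in F1r males, 1650 in F1i females and 2378 in F1i males; their part in the pool differences was not tested.

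**Figure D4:**
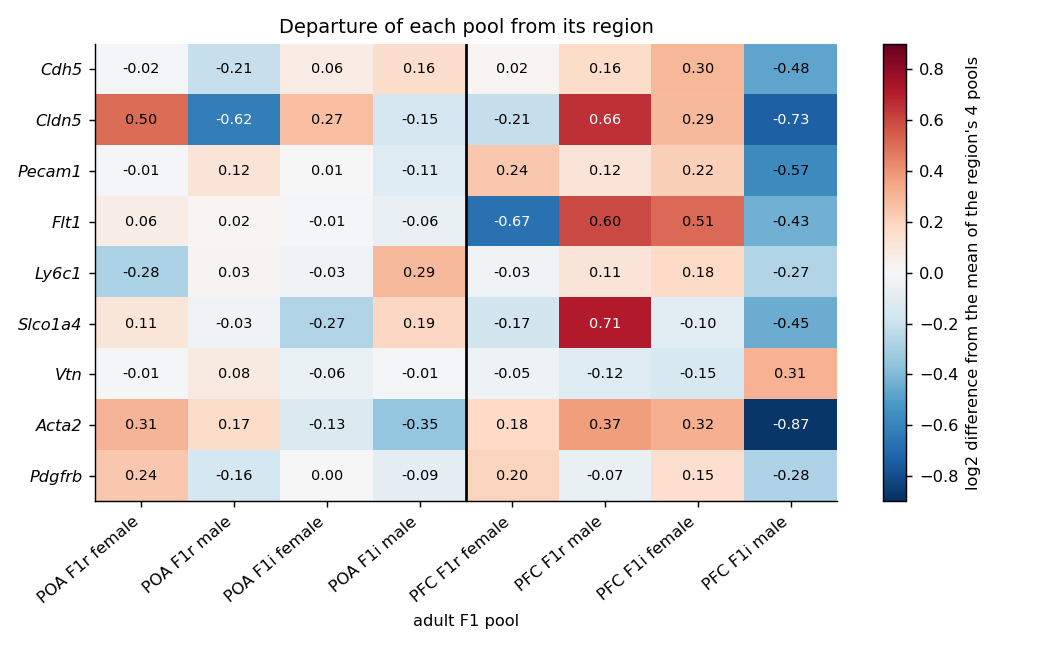
Departure of each adult pool (columns) from the mean of its region's 4 pools for each gene (lines), as a log2 difference in colour and figures. The PFC F1i male column is negative for every gene but Vtn, from -0.27 for Ly6c1 to -0.87 for Acta2.

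Over the 8 adult pools, after the regional mean was subtracted, each gene was set against the mean of the other 8. Pearson's r was 0.83 for Cdh5, 0.79 for Acta2, 0.76 for Cldn5, 0.70 for Pecam1, 0.67 for Flt1, 0.66 for Slco1a4, 0.49 for Pdgfrb, 0.41 for Ly6c1 and -0.93 for Vtn. In all 4 PFC pools Acta2 departed from its mean in the same direction as Cdh5, and Vtn in the opposite one; in all 4 POA pools Acta2 departed in the direction opposite to Cdh5. These are descriptions over 8 pools, and the PFC F1i male pool weighs on each of them. All genes of a pool come from the same libraries, and depth differed between the pools, from 3603514 to 7702810 informative reads. The genes most like the mean of the 9, of 7595 compared, were Appbp1 (r = 0.972), Eid1 (0.964), 1110003E01Rik (0.963), Mat2b (0.962) and Fads3 (0.961), and 55 genes exceeded 0.9.

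The variant bases also give the share of each gene's reads that came from the CAST allele. Ly6c1 gave fewer reads from CAST than from B6 in every adult pool, and Vtn in 7 of 8 adult pools. The CAST share of Ly6c1 was 35.4, 39.4, 32.1 and 38.5% in POA pools and 42.9, 38.3, 40.1 and 44.3% in PFC pools. Over both regions its log2 ratio of CAST over B6 was -0.66 ± 0.08 (SE; edgeR adjusted p = 0.000294), with -0.82 ± 0.11 in POA (adjusted p = 0.0168) and -0.51 ± 0.11 in PFC (adjusted p = 0.0336). The CAST share of Vtn was 39.2, 38.0, 41.7 and 50.6% in POA pools and 43.3, 32.6, 43.2 and 41.9% in PFC pools. Its log2 ratio was -0.51 ± 0.09 over both regions (adjusted p = 0.00329) and -0.57 ± 0.14 in PFC (adjusted p = 0.0406), while POA alone did not pass, at -0.46 ± 0.14 (adjusted p = 0.0945). At E15 the CAST share was 40% and 52.9% for Ly6c1 and 53.8 and 48.3% for Vtn.

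Beside all genes, B6 was called the higher allele for 1 of the 9 genes in POA, against 8.13% of 11876 genes tested, for 2 of 8 in PFC, against 15.4% of 11366, and for 2 of 9 over both regions, against 23.7% of 11154, so the counts were near the background. None of the 9 was called higher from CAST, against 5.25% of all genes in POA, 6.89% in PFC and 12.3% over both regions, so these counts too were near the background. Cldn5 was not tested in PFC, where its mean was under the minimum of 20 reads a pool. The Ly6c1 shares differed between its bases: the CAST share over the summed pools was 37.8, 30.3, 36.8 and 42.0% in POA and 49.6, 26.3, 29.5 and 50% in PFC at bases 95, 125, 200 and 615. In PFC its deepest base there, number 95, gave alone a log2 ratio of 0.02 (adjusted p = 0.962), which ended that call. Without any single PFC pool the PFC ratio of Ly6c1 was -0.58 to -0.44 and did not pass, and the POA ratio did not pass without the F1r female, F1i female or F1i male pool (-0.76, -0.71 and -0.91). Over both regions the Ly6c1 ratio passed in all 12 alternatives, at -1.33 at its deepest base. The genome alignment was not among the 12, because none of the 4 Ly6c1 bases is listed in it. The Vtn call over both regions was lost at the deepest base (-0.37, adjusted p = 0.140), and that in PFC also without the F1r male, F1i female or F1i male pool (-0.41, -0.59 and -0.55). The B6 sequence around bases 200 and 615 has an exact match in Ly6c2, that around base 95 has none and that around base 125 was not searched; the part of such matches in the shares was not tested.

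Vtn carried its lower CAST share at 5 of 6 bases in POA and at 6 of 6 in PFC. A read may count at each base it covers, so the 6 need not be separate sites. None of the 4 bases listed in all 3 tables lies within a read length of another. At bases 71, 463, 830 and 1071 the CAST share was 58.2, 41.4, 34.5 and 38.4% in POA. In PFC it was 42.6, 46.5, 37.3 and 38.3%. The summed Vtn share takes all 6 bases and may count some reads more than once. Its coding bases listed in all 3 tables are shown because no other sequence matched them, at chr11:78312848-78312872 (C71T), chr11:78313407-78313431 (A463G), chr11:78314020-78314044 (G830A) and chr11:78315096-78315120 (A1071G) of NCBIM37, 5′ to 3′ on the plus strand, in the B6 form with the variant base in capitals; the CAST form has the second letter of each token in its place.
Vtn 71, B6: tgccatggcaccCctgaggcccttt
Vtn 463, B6: tggagcaacaggAggagatcctaag
Vtn 830, B6: tgttgatgcagcGttcgcccttcct
Vtn 1071, B6: ttcatcagccggAactggcatggtg

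**Figure D5:**
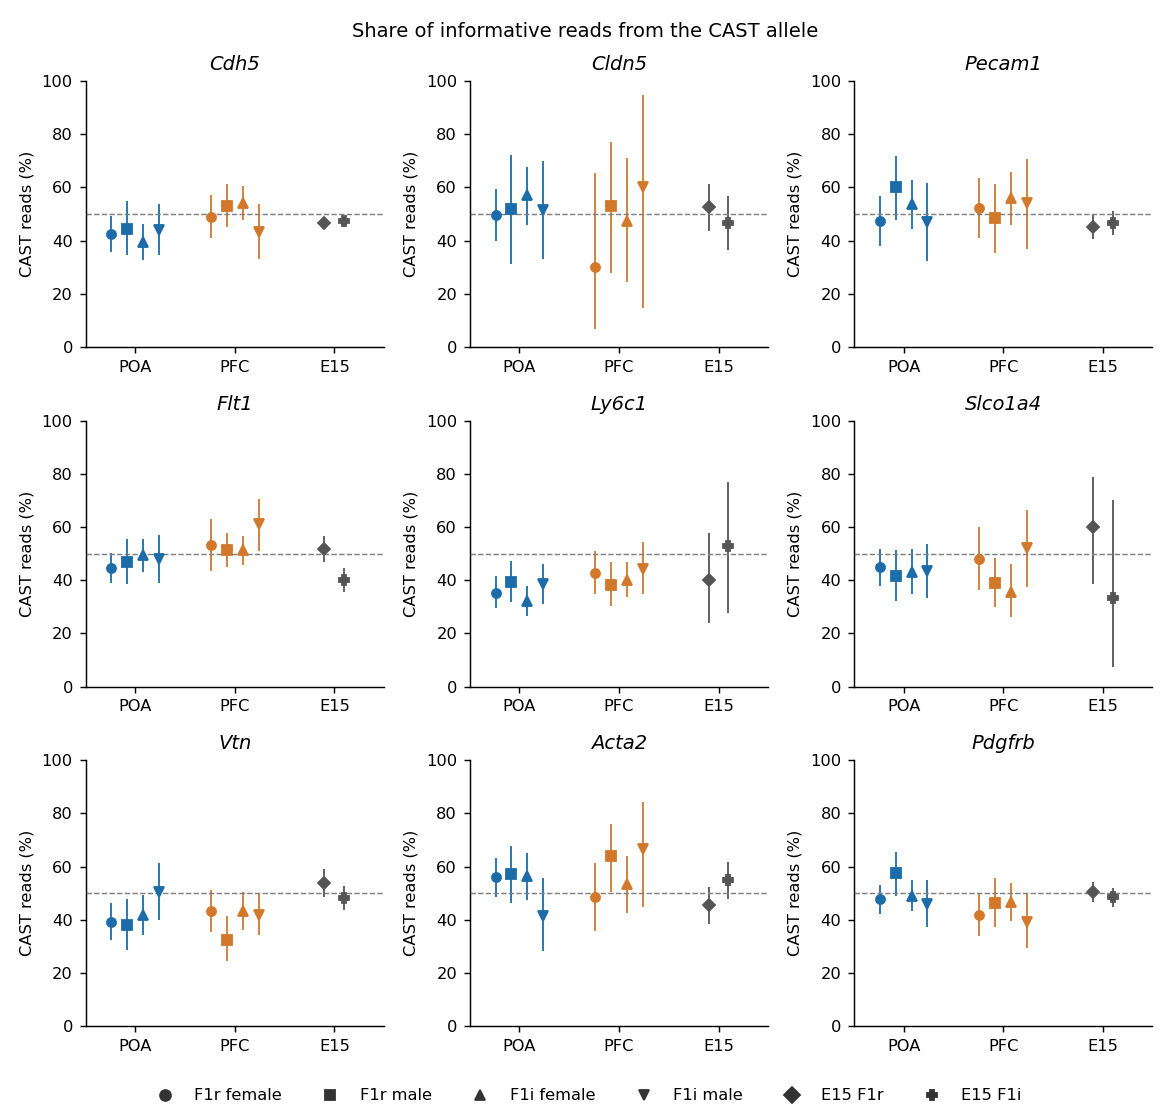
CAST share of informative reads (%, y axis from 0 to 100) for each gene in the POA, PFC and E15 pools, with the exact binomial 95% interval for counting error as a bar and a dashed line at 50%. All 8 adult Ly6c1 pools lie below the line, at 32.1 to 44.3%, and the Cldn5 intervals in PFC are wide, resting on 5 to 19 reads.

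The other 7 genes passed no strain test in the adult. Cdh5 had 42.4, 44.6, 39.4 and 44.0% from CAST in POA pools, 49.1, 53.2, 54.2 and 43.2% in PFC pools and 46.6 and 47.3% in E15 pools. All 4 POA pools were below 50% and PFC fell on both sides; the log2 ratio in POA was -0.44 ± 0.11 (SE; edgeR adjusted p = 0.0652), and it passed with autosomal genes alone (-0.46, adjusted p = 0.0109) and in DESeq2 (-0.45, adjusted p = 0.0320). The difference between the regions was itself not called, at -0.49 ± 0.17 for POA minus PFC (adjusted p = 0.155). Slco1a4 had 44.8, 41.5, 43.2 and 43.4% from CAST in POA pools and 48.0, 38.8, 35.7 and 52.0% in PFC pools, a mean of 43.4 ± 5.09% over the 8 (SD) with 7 of them below 50%; its log2 ratio over both regions was -0.33 ± 0.13 (adjusted p = 0.0726). Over both regions, Slco1a4 passed without the PFC F1i male pool (-0.42, adjusted p = 0.0307) and with autosomal genes alone (-0.35, 0.0190), and Cdh5 passed without the PFC F1i female pool (-0.29, 0.0432). In POA alone, Slco1a4 and Vtn passed with autosomal genes alone (-0.38 and -0.47, adjusted p = 0.0381 and 0.0149). The Slco1a4 ratio changed sign among the alternatives tried. It ran from -0.44 to 0.495 in POA and from -0.42 to 0.03 over both regions. At base 2257, where Slco1a4 had most reads, the CAST share was 59.3% in POA and 42.0% in PFC. Acta2 and Pecam1 had more CAST than B6 reads on average, at 55.5 ± 8.02% and 52.4 ± 4.65% over the adult pools (SD, n = 8), and neither passed the test. Acta2 averaged 52.8 ± 7.55% in POA and 58.1 ± 8.62% in PFC (SD, n = 4 each). Pdgfrb averaged 50.1 ± 5.07% in POA and 43.4 ± 3.62% in PFC, where all 4 pools were below 50%; its PFC log2 ratio was -0.38 ± 0.13 (adjusted p = 0.0987) and passed with autosomal genes alone (-0.36, 0.0470). Cldn5 averaged 50.1 ± 9.03% over the 8 adult pools.

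Across regions and ages the shares of the 9 genes did not differ past the test. Between POA and PFC, 543 genes were called (4.87% of 11154) and none of the 9, with the smallest adjusted p at 0.155, for Cdh5. Between adult and E15 pools, 10 genes were called (0.0886%) and none of the 9; Vtn had the largest difference among them, at -0.56 ± 0.19 (SE) on the log2 scale for adult minus E15 (edgeR adjusted p = 0.260). At E15 itself 0 of 14676 genes were called for a strain difference (0%), while 3139 had an unadjusted p under 0.05 in edgeR and DESeq2 called 547. Its 2 pools leave little to estimate the spread from, and Slco1a4, with 25 and 9 reads, was not tested there.

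The maternal share, that is, the B6 share in F1r pools and the CAST share in F1i pools, passed the test for 1 gene at E15 and none in the adult. Flt1 at E15 had a maternal share of 48.1% in the F1r pool and 40.04% in the F1i pool, from 420 and 487 reads. The log2 ratio of CAST to B6 was 0.69 lower in F1i than in F1r, which is the paternal direction (two-sided Fisher's exact test, adjusted p = 0.00487). That test compares 2 pools and covers counting error only, and it called 2006 genes (13.7% of 14676). Some Flt1 bases, such as 797 and 806, lie within a read length of 36 bases of each other, so a read may count at both. The test takes such counts as separate reads, so even the counting error may be understated. In an edgeR fit that borrowed its spread from adult pools, at the deepest base alone and in the genome alignment, the Flt1 difference was -0.48, -0.67 and -0.49 and did not pass (adjusted p = 1.0, 0.652 and 0.123). In the adult, Flt1 had maternal shares of 55.6, 53.1, 49.4 and 48.0% in POA pools and 46.7, 48.6, 51.2 and 61.2% in PFC pools, on both sides of 50%. Called genes made up 0.413% of those tested in POA, 0.282% in PFC and 0.43% over both regions, and the maternal share of the 9 genes averaged between 48.5% for Pdgfrb and 53.9% for Cldn5 over the 8 adult pools.

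The E15 brains of the 2 parental strains gave 1 summed value a strain, with no replicate of either. Cdh5 had 133 RPM in CAST and 208 in B6 brains, a log2 ratio of -0.64, against -0.18 between its alleles in the F1 pools. Pdgfrb had 52.3 in CAST and 80.8 in B6 brains, a log2 ratio of -0.63, against -0.05 between the F1 alleles. For Pecam1 the log2 ratio was -0.50 between the strains and -0.23 between the alleles, for Flt1 -0.51 and -0.26, for Vtn -0.37 and 0.04, for Acta2 -0.28 and 0.01, and for Cldn5 0.09 and 0.00. The CAST brain was below the B6 brain for each of these genes except Cldn5, and for those 6 genes the log2 ratio between the strains was lower than that between the alleles. Ly6c1 and Slco1a4 had 20 reads or fewer in each strain. These are differences between 2 single samples and were not tested. The strain values are plain RPM without TMM, on 4076112 informative reads in CAST and 4999481 in B6. The strain ratio over all genes is not given here, and a general offset between the 2 samples was not tested.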

How the data were processed

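The authors aligned reads of 36 bases with Novoalign to mm9, per the submitters' processing notes, and deposited counts of reads carrying the CAST or the B6 base at each variant base of UCSC transcripts, with technical repeats summed. The deposited counts have no replicates within a pool, and strand is not stated. From them, repeat listings were dropped and the variant bases of each gene's transcript with most reads were summed. A read that covers more than 1 variant base may therefore count at each of them. Levels were tested with edgeR 4.0.16 (quasi-likelihood, TMM, filterByExpr) in R 4.3.3, on variant bases listed in all tables compared; alleles were tested in edgeR without TMM at a mean of at least 20 reads a pool, and parental effects at E15 with Fisher's exact test. DESeq2 1.42.0 was an alternative. Genes were called at a Benjamini-Hochberg adjusted p under 0.05. A parental log2 value is the CAST to B6 log2 ratio in F1i minus that in F1r. Intervals cover counting error only, since PCR reads are not independent molecules. Fits were tested on simulated data. All 9 genes are named; of other lists, up to 2 called genes of smallest adjusted p per comparison. The members and lists were chosen with earlier results of these data known. Another 28 columns, of functional RNA tables and of adult parental calls that could not be tied to a region, were not used here. Gene positions and sequences come from an NCBIM37 assembly and annotation, into which the variant bases were placed.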

Additional observations from a re-analysis of the deposited data

Results flagged for a closer look

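Each of 54 groups of 4 adult pools was checked for a pool far from the other 3, and 3 such pools were found; chance marks about 1 in 20 groups. Acta2 had a CAST share of 41.5% in the POA F1i male pool, against 56.0 to 57.3% in the other 3 POA pools. The Acta2 maternal share in POA was 56.4% in the F1i female pool, against 41.5 to 44.0% in the other 3. Vtn had a CAST share of 32.6% in the PFC F1r male pool, against 41.9 to 43.3% in the other 3 PFC pools. Flt1 lay on opposite sides of an even share in the adult regions: its CAST share averaged 47.2% in POA, with all 4 pools below 50%, and 54.3% in PFC, with all 4 above; the difference itself did not pass in edgeR (adjusted p = 0.261).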

How the results depend on the processing

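No paired analysis was possible by the labels' replicate numbers, because they mark technical repeats, which the deposited columns sum. Pools could be matched by cross and sex instead: a fit of POA over PFC with these as a block called 6764 genes, against 6623, and changed no call among the 9 genes. Of 303 values recomputed for the 22 calls among the 9 genes, 261 passed in the same direction, 41 missed the threshold and 1 changed sign, the Ly6c1 strain ratio in PFC, which was 0.0232 at its deepest base. Of 1141 values for results not called, 21 passed. The numbers of calls over all genes stayed within 1.5 times in 110 of 163 alternatives. Those outside were as follows. With autosomal genes alone, the strain tests called 1625 genes at E15 (against 0), 3329 in POA (1589), 3969 in PFC (2528), 1146 for POA against PFC (543) and 134 for adult against E15 (10), and the parental tests called 188 in POA (49), 52 in PFC (32) and 89 over both (48). At the deepest base alone, strain tests called 384 in POA, 312 for POA against PFC, 2 for adult against E15 and 2171 over both regions (4013), the parental test called 1212 at E15 (2006), and F1r against F1i called 2 (1). DESeq2 called 547 for strain at E15, 152 for adult against E15 and 108 for the parental test in POA. With the spread of the adult pools, E15 gave 987 strain and 44 parental calls. All listed bases gave 0 for F1r against F1i. Leaving out 1 pool at a time gave 0 to 5 calls for female against male (4), 0 to 1 for F1r against F1i, 0 to 546 for strain in POA, 1 to 1288 in PFC, 154 to 320 for POA against PFC, 4 to 14 for adult against E15, and 19 to 56 and 10 to 29 for the parental tests in POA and PFC. The cause of these changes was not tested. Low depth limits Cldn5 in PFC, Ly6c1 and Slco1a4 at E15, and each allele share of a pool with under 100 reads.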
